A study of Mus musculus with 10 samples.

Results

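The genes described here are 7 genes of signalling by gamma-aminobutyric acid (GABA), measured by RNA sequencing in 10 mouse melanomas. They are the GABA-A receptor subunit genes Gabra3, Gabre, Gabrq, Gabra2 and Gabrb2, the GABA-B receptor subunit gene Gabbr1, and Abat, which encodes the enzyme that breaks GABA down. They were found by gene symbol among the 47643 genes of the deposited tables, and each symbol matched 1 gene. They were chosen by the measured fold change of Gabra3 between the Fes genotypes, together with genes of the same pathway, so the genotype differences of these 7 genes are descriptions and support nothing by themselves.

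Tumours of 2 genotypes were compared. The 5 Fes WT tumours carried Fes+/+ and the 5 Fes KO tumours carried Fes-/-, and every mouse of both groups carried Tyr::CreERT2/+ together with BRafV600E/+ and Ptenl/l. Tyr::CreERT2 places a tamoxifen-activated Cre recombinase under the promoter of the tyrosinase gene, which is active in the melanocyte lineage, and the tumours followed 4OH-tamoxifen (5 mM) applied to the back skin. The sources used here give neither the age of the mice nor whether each tumour is from a different animal. The p-values therefore reflect only spread between tumours, which need not be spread between animals. RNA of whole tumours was sequenced, so fewer cells of a type and less RNA per cell cannot be told apart.

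GABA is the main inhibitory transmitter of the adult brain. It opens GABA-A receptors, which are chloride channels assembled as pentamers from a large family of subunits, most often alpha, beta and gamma types. It also acts on the GABA-B receptor, a G protein-coupled heterodimer of the products of Gabbr1 and Gabbr2. Glutamate decarboxylases, encoded by Gad1 and Gad2, make GABA, and the transaminase encoded by Abat removes it. Outside the nervous system, components of this pathway are found in several tissues and tumours. In human melanoma, GABRA3 has been described among genes that are expressed where promoter DNA methylation is lost.

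Gabra3, Gabre and Gabrq lie together on the X chromosome. In GRCm38 coordinates, Gabre (ENSMUSG00000031340) runs from 72255999 to 72274803 on the minus strand, Gabra3 (ENSMUSG00000031343) from 72432681 to 72656848 on the minus strand, and Gabrq (ENSMUSG00000031344) from 72825178 to 72842602 on the plus strand. Gabra3 is thus 158 kb from Gabre and 168 kb from Gabrq. Gabra2 (ENSMUSG00000000560) lies on chromosome 5 from 70957597 to 71095849, Gabrb2 (ENSMUSG00000007653) on chromosome 11 from 42419757 to 42629028, Gabbr1 (ENSMUSG00000024462) on chromosome 17 from 37045966 to 37075067 and Abat (ENSMUSG00000057880) on chromosome 16 from 8513429 to 8621568. All 7 are annotated as protein-coding.

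The promoters of the 3 X-linked neighbours are shown because these genes share a location but not a level. Gabra3 and Gabrq were lower in Fes KO, and Gabre did not share that direction. Each sequence is the 250 bases before the annotated start in RefSeq (GRCm38.p6), written 5′ to 3′ on the gene's strand. Capitals mark CpG dinucleotides and, in Gabra3, the single match to TATAAA, which reads on the opposite strand. The windows are chrX:72656920-72657169 on the minus strand for Gabra3, chrX:72274722-72274971 on the minus strand for Gabre and chrX:72824928-72825177 on the plus strand for Gabrq.
Gabra3: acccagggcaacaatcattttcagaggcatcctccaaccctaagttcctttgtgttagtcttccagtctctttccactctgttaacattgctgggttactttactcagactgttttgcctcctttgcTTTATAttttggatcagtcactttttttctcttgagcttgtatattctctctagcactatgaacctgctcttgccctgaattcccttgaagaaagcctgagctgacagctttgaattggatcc
Gabre: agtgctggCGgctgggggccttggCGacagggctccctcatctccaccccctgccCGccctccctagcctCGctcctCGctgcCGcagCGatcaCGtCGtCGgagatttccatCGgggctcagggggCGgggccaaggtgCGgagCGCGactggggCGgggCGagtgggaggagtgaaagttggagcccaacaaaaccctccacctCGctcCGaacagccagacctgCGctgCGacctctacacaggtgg
Gabrq: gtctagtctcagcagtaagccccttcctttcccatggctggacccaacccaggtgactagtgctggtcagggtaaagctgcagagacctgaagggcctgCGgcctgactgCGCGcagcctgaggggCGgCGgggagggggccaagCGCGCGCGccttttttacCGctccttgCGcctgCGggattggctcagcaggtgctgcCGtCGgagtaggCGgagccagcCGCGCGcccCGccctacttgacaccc

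The Gabra3 window held 0 CpG dinucleotides, and so did a second annotated window of Gabra3 that overlaps it. Of all 32851 windows in the table, 7.87% held 0, and the median was 6. Gabre had 21 CpG dinucleotides and Gabrq 19, and 83.7% and 80.3% of all windows had fewer. The GC content was 42.4% in Gabra3, 68.8% in Gabre and 67.2% in Gabrq. TATAAA was searched on both strands and occurred in 12.4% of all windows, in both windows of Gabra3 and in neither Gabre nor Gabrq. The motif TCATGTG, searched in the same way, was found in none of these 3 windows and in 3.25% of all windows. The same held for TGACTCA, in 4.46% of all windows, and for CACGTG, in 6.02%. Windows were found for 6 of the 7 genes. Gabra2 had 18 CpG dinucleotides, Gabbr1 16, and the 3 windows of Gabrb2 had 8, 8 and 4.

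Total counts ranged from 13226783 to 16599120 per tumour, with 20505 to 22395 genes at 1 count or more. Levels below are CPM, a gene's counts relative to the library total after scaling by edgeR's TMM factors, and errors are SDs over 5 tumours. The targeted gene Fes was at 29.2 to 57.5 CPM in Fes KO and 72.4 to 102 CPM in Fes WT, so every library lay on the side its label gives, although reads were still counted to Fes in the Fes KO tumours. Its log2 fold change was -1.06 (SE 0.19, edgeR adjusted p = 0.0846), and it was not called at an adjusted p below 0.05. Of all 14816 tested genes, 1.11% were likewise lower in every Fes KO tumour than in every Fes WT tumour. Sox10, a defining transcription factor of the melanocyte lineage and of Schwann cells, was at 392 to 970 CPM in every tumour. The pigment enzyme gene Tyr ranged from 0.457 to 51.1 CPM and the melanosome gene Mlana from 0 to 27.2 CPM, so differentiation markers were low or absent in some tumours. Some tumours stood apart in content. The 7 keratinocyte markers summed to 3682 CPM in Fes KO 2 and to at most 170 CPM in the others, and the 7 skeletal muscle markers summed to 13560 CPM in Fes WT 3, 1676 CPM in Fes KO 2 and at most 327 CPM elsewhere. Xist, the RNA of the inactive X chromosome, lay between 670 and 720 CPM in 3 tumours (Fes KO 1, Fes KO 2, Fes WT 5) and did not exceed 0.678 CPM elsewhere.

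Gabra3, which encodes the alpha3 subunit, was far lower in the Fes KO tumours. Its level was 91.3, 80.3, 66.8, 68.0 and 10.2 CPM in Fes WT 1 to 5, from 1398, 1261, 1018, 1114 and 134 counts. In Fes KO 1 to 5 it was 4.98, 3.99, 5.12, 1.05 and 1.38 CPM, from 79, 64, 83, 16 and 19 counts. All Fes KO tumours lay below all Fes WT tumours, and Fes WT 5 stood between the other Fes WT tumours and the Fes KO range. The means were 63.3 ± 31.3 CPM in Fes WT and 3.30 ± 1.96 CPM in Fes KO, a 19.2-fold difference in means. The log2 fold change, Fes KO minus Fes WT, was -4.25 (SE 0.64).

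Fes WT 5 was the 1 Fes WT tumour with Xist, and Gabra3 is X-linked. Among the Fes KO tumours, Fes KO 1 and Fes KO 2, which had Xist, were at 4.98 and 3.99 CPM of Gabra3, and the other 3 were at 5.12, 1.05 and 1.38 CPM. Without the 3 Xist-expressing tumours the log2 fold change of Gabra3 was -4.91, with an adjusted p of 0.0270 in edgeR (Benjamini-Hochberg over all tested genes). Over the 472 tested X-linked genes the median log2 fold change was 0.01. Any part of sex-linked content in the Gabra3 difference was not tested.

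Gabrq, which encodes the theta subunit and lies beyond the 5′ end of Gabra3, was also lower in Fes KO. It was at 2.81, 6.43, 1.31, 9.64 and 1.07 CPM in Fes WT 1 to 5. In Fes KO 1 to 5 it was at 0.189, 0.499, 0.493, 0.588 and 0.292 CPM, from 3, 8, 8, 9 and 4 counts. The groups did not overlap, although Fes WT 3 and Fes WT 5 lay close to the Fes KO tumours. The means were 4.25 ± 3.70 CPM and 0.412 ± 0.165 CPM, and the log2 fold change was -3.34 (SE 0.67). Gabrq passed the filter on low counts through the Fes WT tumours alone, so a difference in this direction was built into its being tested.

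Gabre, which encodes the epsilon subunit and lies on the other side of Gabra3, did not share the direction. Its level was 22.0, 24.4, 15.0, 26.7 and 13.3 CPM in Fes WT 1 to 5 and 31.8, 14.0, 51.3, 16.5 and 47.8 CPM in Fes KO 1 to 5. Replicates 1, 3 and 5 of Fes KO exceeded every Fes WT tumour, while replicates 2 and 4 fell inside the Fes WT range. The means were 20.3 ± 5.84 CPM in Fes WT and 32.3 ± 17.2 CPM in Fes KO, with a log2 fold change of 0.67 (SE 0.38).

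**Figure D1:**
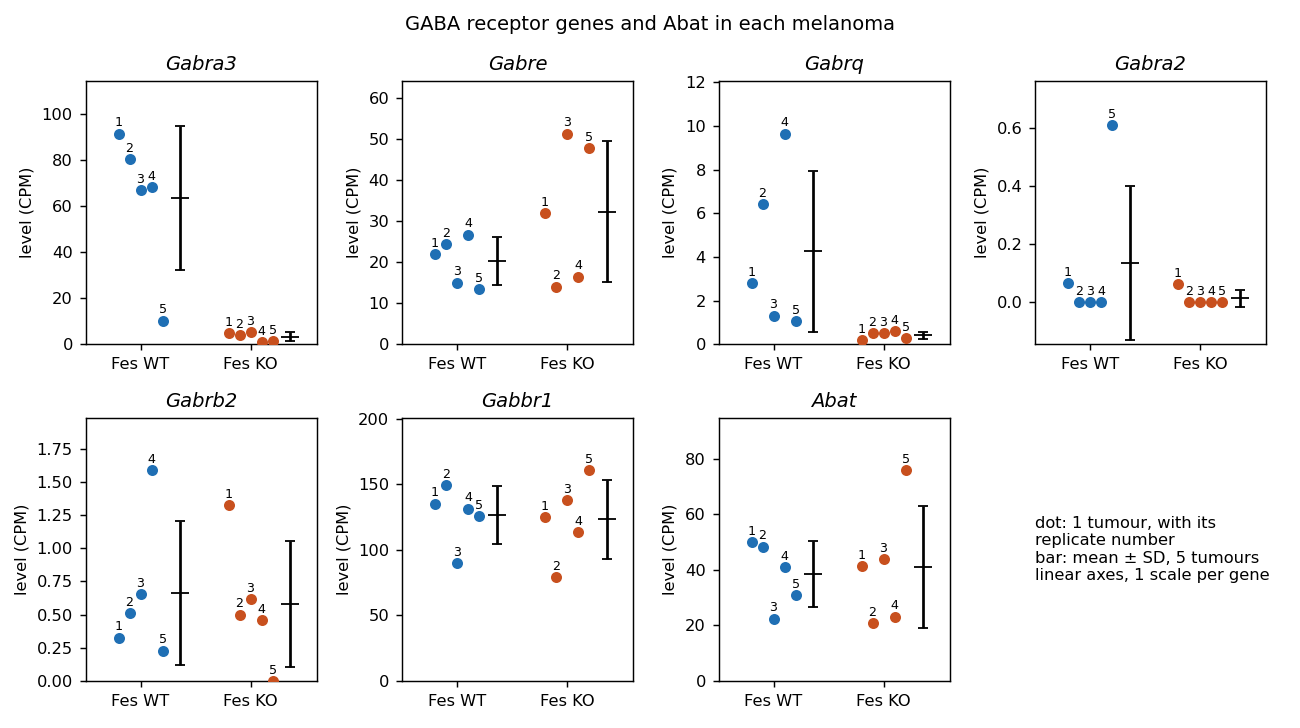
Level in CPM (linear axes, a separate scale for each gene) of the 7 genes in each tumour, with the replicate number beside each dot and the mean ± SD of 5 tumours as a bar. Gabra3 and Gabrq are lower in every Fes KO tumour than in every Fes WT tumour, and the groups overlap for the other 5 genes.

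Of the remaining receptor subunits on the list, Gabra2 and Gabrb2 were close to the limit of detection. Gabra2, another alpha subunit gene, had 9 counts over the Fes WT tumours, of which 8 were in Fes WT 5, and 1 count over the Fes KO tumours, in Fes KO 1. It was listed at 0 in the other 7 tumours, and a floor of 3 counts over the summed Fes KO libraries corresponds to 0.0389 CPM. Gabrb2, a beta subunit gene, was at 0.327, 0.509, 0.656, 1.59 and 0.229 CPM in Fes WT 1 to 5 and at 1.32, 0.499, 0.616, 0.458 and 0 CPM in Fes KO 1 to 5. Its groups overlapped over most of their range, with 52 counts in all Fes WT and 46 in all Fes KO tumours. Neither gene passed the filter, and no difference was detectable at this depth.

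Gabbr1, the GABA-B subunit that binds the transmitter, had nearly the same mean in both groups. It was at 135, 149, 90.1, 132 and 126 CPM in Fes WT 1 to 5 and at 125, 79.4, 138, 113 and 161 CPM in Fes KO 1 to 5. The lowest tumour of each group was the muscle-rich Fes WT 3 and the keratinocyte-rich Fes KO 2. The means were 126 ± 22.0 CPM and 123 ± 30.2 CPM, with a log2 fold change of -0.04 (SE 0.19).

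Abat, which encodes GABA transaminase, was at 49.9, 48.4, 22.4, 41.1 and 30.8 CPM in Fes WT 1 to 5 and at 41.3, 20.7, 43.9, 23.2 and 75.9 CPM in Fes KO 1 to 5. The groups overlapped, and the highest tumour, Fes KO 5, and the lowest, Fes KO 2, were both Fes KO. The means were 38.5 ± 11.7 CPM and 41.0 ± 22.1 CPM, with a log2 fold change of 0.09 (SE 0.36).

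Of the 5 genes that passed the filter, 1, Gabra3, was called lower in Fes KO in edgeR's quasi-likelihood test at an adjusted p below 0.05 (adjusted p = 0.0411), where 0.128% of all 14816 tested genes were called lower. Of the 5, 0 were called higher, against 0.0472% of tested genes, and 2 (Gabra3 and Gabrq) had an unadjusted p below 0.05, against 9.62%. The edgeR adjusted p of Gabrq was 0.124, of Gabre 0.597, of Gabbr1 0.966 and of Abat 0.953. Gabra3 and Gabrq were lower in every Fes KO tumour than in every Fes WT tumour, which held for 1.11% of tested genes. The reverse, every Fes KO tumour above every Fes WT tumour, held for 0 of the 5 and for 0.783% of tested genes. As the list was built around this difference, nothing is read from these shares. Leaving out single tumours, the Gabra3 call held in the fit that dropped Fes WT 5 (edgeR adjusted p = 0.00418) and in no other. The adjusted p was 0.0542 to 0.126 without any one of Fes WT 1, 2, 3 and 4 and Fes KO 1 to 5. Over those fits the log2 fold change lay between -4.52 and -4.02.

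Compared per length, as CPM per kilobase of merged exons, Gabbr1 and Gabra3 led the Fes WT tumours. Gabbr1 was at 16.3 ± 2.84 and Gabra3 at 16.1 ± 7.98 CPM per kilobase there, a difference well within their spread. Abat at 4.97 ± 1.52 and Gabre at 4.28 ± 1.23 CPM per kilobase followed and also did not differ beyond their spread. Gabrq at 0.794 ± 0.691, Gabrb2 at 0.104 ± 0.0854 and Gabra2 at 0.0177 ± 0.0349 CPM per kilobase came last. In the Fes KO tumours Gabbr1 stayed first at 15.9 ± 3.89 CPM per kilobase, and the next levels were Gabre at 6.82 ± 3.63 and Abat at 5.29 ± 2.85. Gabra3 came next at 0.842 ± 0.499 CPM per kilobase, ahead of Gabrb2 at 0.0911 ± 0.0751, Gabrq at 0.0770 ± 0.0309 and Gabra2 at 0.00165 ± 0.00369.

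Other GABA-A subunits put these levels in context. Gabrd, the delta subunit gene, was at 0.209 ± 0.192 CPM per kilobase in Fes WT and 0.0753 ± 0.0318 in Fes KO. The range of Gabra3 in Fes WT, 2.60 to 23.3 CPM per kilobase, lay above the range of Gabrd there, 0.0265 to 0.531, and in Fes KO the ranges of 0.267 to 1.30 and 0.0254 to 0.108 CPM per kilobase did not overlap either. The beta subunit gene Gabrb1 had 22 counts over all Fes WT tumours and 21 over all Fes KO tumours. Gabrg1, which encodes a gamma subunit, had 0 counts in every tumour, and the gamma subunit gene Gabrg3 had 11 and 13 counts in the 2 groups. Gabrb1, Gabrg1 and Gabrg3 were named after their values were seen.

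**Figure D2:**
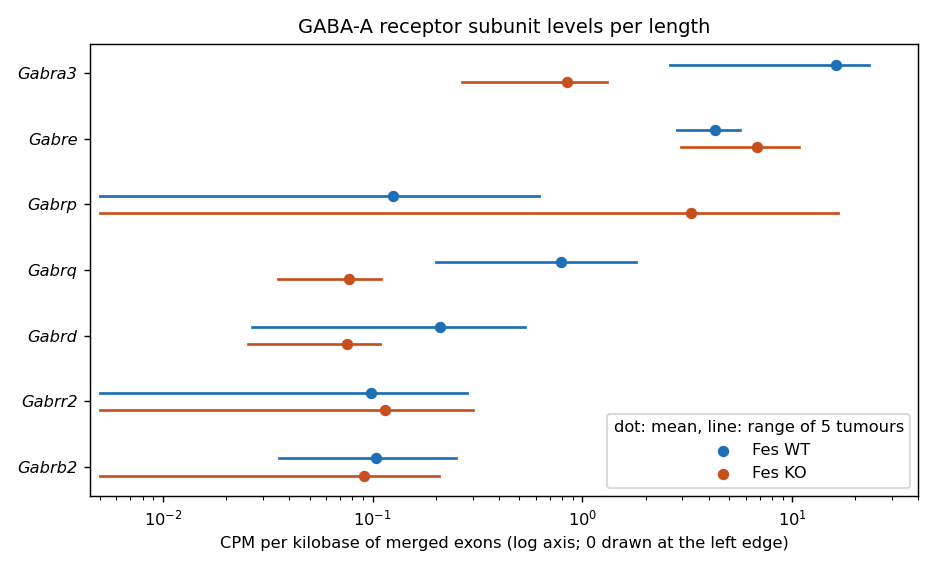
CPM per kilobase of merged exons (log axis) for 7 GABA-A receptor subunit genes with a mean of at least 0.05 in a group, as the mean (dot) and the range (line) of 5 tumours, where 0 is drawn at the left edge. The mean of Gabra3 falls from first place in Fes WT, at 16.1, to 0.842 in Fes KO, below Gabre, and the high Fes KO mean of Gabrp rests on 1 tumour.

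The direction of the X-linked cluster was set against its surroundings. Within 2 Mb of Gabra3, 49 genes were tested, Gabre and Gabrq among them, with a median log2 fold change of -0.03, 22 above 0 and 27 below. At the adjusted threshold 0 of the 49 were called in edgeR and 0 in limma-voom, where 0.175% and 0.776% of all tested genes were called. An unadjusted edgeR p below 0.05 was found for 5, close to the 9.62% of all tested genes. DESeq2 called 3, all lower in Fes KO: Gabrq, the proteoglycan gene Bgn and the nuclease-like gene Dnase1l1. It called 1.86% of the 14537 genes to which it gave an adjusted p. The groups did not overlap for the same 3 genes, or 6.12% of the 49, against 1.9% of all tested genes. With Gabre and Gabrq left aside this held for 2 of 47 genes, or 4.26%.

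Bgn was at 3672 CPM in Fes WT and 2066 CPM in Fes KO with a log2 fold change of -0.83 (SE 0.21, edgeR adjusted p = 0.213), and Dnase1l1 at 28.8 and 18.8 CPM with -0.61 (SE 0.14, edgeR adjusted p = 0.183). The third smallest p in the window among genes off the list belonged to Renbp, which encodes renin binding protein, at -0.35 (SE 0.12, edgeR adjusted p = 0.407). Each of these differences is smaller than 1 on the log2 scale, while Gabra3 and Gabrq lay at -4.25 and -3.34. Gabra3 was chosen by its fold change and Gabrq was tested only through its Fes WT level, so nothing is read from this contrast. The tested genes nearest to the cluster on each side were Prrg3 at -0.09 (SE 0.35) and Cetn2 at -0.01 (SE 0.08).

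Annotated genes inside the span of Gabra3 took few reads. The microRNA genes Mir767 and Mir105 lie within Gabra3 on its strand and had 0 counts. The pseudogene Gm14735 on the opposite strand had 2 counts over all tumours.

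**Figure D3:**
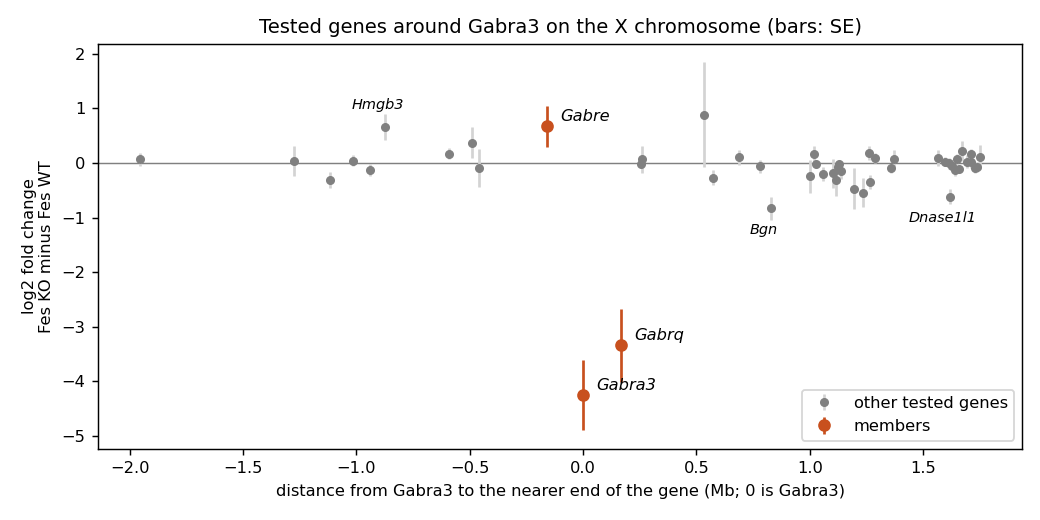
Log2 fold change (Fes KO minus Fes WT, with SE bars) of the tested genes within 2 Mb of Gabra3, against distance from Gabra3 in Mb. Gabra3 at -4.25 and Gabrq at -3.34 lie apart from their neighbours, and Gabre at 0.67 lies on the other side of 0. Gabra3 was chosen by its fold change and Gabrq was tested only through its Fes WT level, so nothing is read from this.

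How the genes varied between tumours of the same genotype was examined next, because this variation was not used in choosing them. Each level was taken as log2 CPM (prior count 2) and as a deviation from the mean of its own group, and the correlations over the 10 tumours are descriptions, given without a p. The points share library, depth and tissue content, and 10 pairs of the 5 tested genes were computed. Gabbr1, Abat and Gabre moved together from tumour to tumour. How many other genes moved with them was not counted. Pearson's r was 0.91 for Gabbr1 with Abat (Spearman's rho 0.95), 0.88 for Gabre with Abat (rho 0.75) and 0.81 for Gabre with Gabbr1 (rho 0.85).

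All 3 genes were below their group mean in replicate 3 of Fes WT and in replicates 2 and 4 of Fes KO. They were above it in replicates 1, 2 and 4 of Fes WT and 1, 3 and 5 of Fes KO. Sox10 was also lowest of its group in Fes WT 3 and Fes KO 2, at 461 and 392 CPM. These are the tumours richest in muscle and keratinocyte transcripts. Without both of them r was 0.93, 0.84 and 0.80 in the same order, and without the 2 tumours farthest from the median of the first gene of each pair, with the deviations kept as they were, it was 0.93, 0.78 and 0.73.

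Gabra3 followed this pattern less clearly, and its correlations depended on the tumours included. Its r was 0.14 with Abat, -0.09 with Gabbr1, 0.36 with Gabre and 0.38 with Gabrq. Without Fes WT 5 and Fes KO 4, the tumours farthest from the median of Gabra3, and with the other deviations kept, those values were -0.41, -0.27, -0.22 and 0.12. Without Fes WT 3 and Fes KO 2 they were 0.40, 0.25, 0.65 and 0.48. Gabra3 deviated by -2.30 in Fes WT 5, -1.29 in Fes KO 4 and -0.92 in Fes KO 5, and Gabrq by -1.41, 0.47 and -0.30 in the same tumours. Both genes were thus lowest within Fes WT in Fes WT 5, and they lay on opposite sides of their group means in Fes KO 4.

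**Figure D4:**
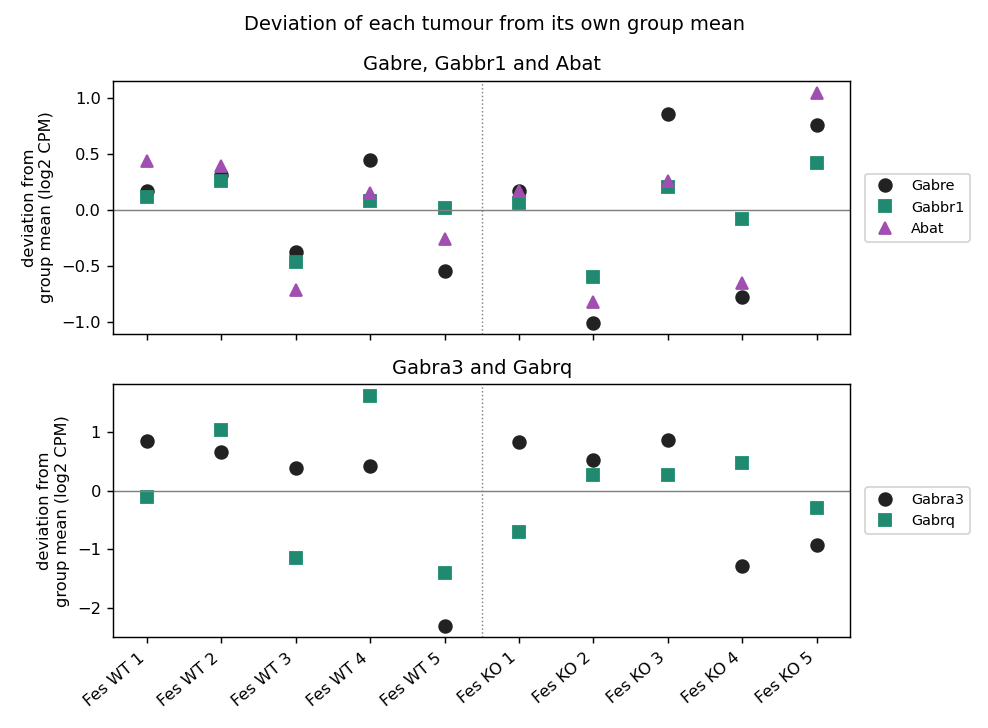
Deviation of log2 CPM from the mean of the tumour's own group, for Gabre, Gabbr1 and Abat (upper panel) and Gabra3 and Gabrq (lower panel), in each of the 10 tumours, with a dotted line between the groups. The 3 genes of the upper panel move together, all being low in Fes WT 3 and Fes KO 2, whereas Gabra3 and Gabrq are lowest in Fes WT 5 at -2.30 and -1.41.

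Genes whose deviations were most like those of Gabra3 were sought among the 13276 tested protein-coding genes that averaged 1 CPM or more. The highest r belonged to Tmigd1 (0.97, rho 0.90), Lrrc55 (0.97, rho 0.78), Zfp704 (0.96, rho 0.79), Sprn (0.94, rho 0.83) and Wdr66 (0.94, rho 0.93). Lrrc55 encodes an auxiliary subunit of BK potassium channels, and Sprn a prion-related protein. Lrrc55 was at 4.65 CPM in Fes WT 5 and 20.5 to 27.8 CPM in the other Fes WT tumours, and Fes KO 4 and Fes KO 5 were its lowest Fes KO tumours at 2.29 and 3.57 CPM. The most opposite genes were C1rl (-0.95), Rnf31 (-0.94) and Slfn4 (-0.93). Of the 13276 genes, 141 (1.06%) had an r of at least 0.8, and 132 lay at or below minus 0.8. Which genes came out on top depended on the tumours included. With Fes WT 5 alone left out, r was 0.94 for Tmigd1, 0.96 for Lrrc55, 0.92 for Zfp704, 0.84 for Sprn and 0.87 for Wdr66. Without Fes WT 5 and Fes KO 4, and with group means taken anew, r was 0.93 for Lrrc55, 0.89 for Tmigd1 and 0.70 for Sprn, and of the 5 genes 2 were still among the top 5 without Fes WT 5 alone, without Fes WT 2 or without Fes KO 2. With Spearman's correlation 1 of the 5 was.

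The rest of the pathway was taken from 6 lists of 89 genes, of which 45 passed the filter. In edgeR 0 of the 45 were called, against 0.175% of all tested genes, and 2 had an unadjusted p below 0.05, against 9.62%. DESeq2 and limma-voom also called 0, against 1.86% and 0.776% of all genes. In all 45 the 2 groups overlapped, where 1.9% of all tested genes did not overlap. The median log2 fold change of all tested genes was 0.01.

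Of 14 other GABA-A subunit genes, 1 passed the filter and was not called, and 4 had 0 counts in every tumour. Gabrd reached 1.53 CPM in Fes WT 2.

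Among 13 genes of GABA-B receptor partners and effectors, 6 were tested, with a median log2 fold change of 0.03. Gabbr2, which encodes the subunit that Gabbr1 pairs with and was named after its value was seen, had no more than 2 counts in any tumour. The G protein genes Gnai2 and Gnai3 were at 614 ± 72.4 and 184 ± 20.1 CPM in Fes WT and at 626 ± 79.4 and 188 ± 16.0 CPM in Fes KO. Kctd12, which encodes an auxiliary GABA-B receptor subunit, was at 82.5 ± 30.7 and 73.6 ± 25.2 CPM. The potassium channel genes Kcnj3, Kcnj5 and Kcnj6, whose products are opened by GABA-B signalling in neurons, had no more than 1 count in any tumour and were named after their values were seen. Kcnj9, another such channel gene of the list, had 15 counts over all Fes WT and 12 over all Fes KO tumours.

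Of 13 genes for GABA synthesis, transport and breakdown, 9 were tested, 6 above 0 and 3 below, with a median of 0.10. The glutamine synthetase gene Glul was at 195 ± 50.3 CPM in Fes WT and 196 ± 78.3 CPM in Fes KO, and the aldehyde dehydrogenase gene Aldh9a1 at 57.4 ± 7.41 and 54.3 ± 5.29 CPM. Their log2 fold changes were 0.01 and -0.08, both smaller than the spread between tumours.

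The 3 highest values of the list were at low levels and were named after they were seen. Gad1, the GABA-synthesising enzyme gene, was at 0.0653, 0.955, 0.787, 0.0610 and 6.86 CPM in Fes WT 1 to 5 and at 5.23, 0.374, 3.57, 5.62 and 12.9 CPM in Fes KO 1 to 5. Fes KO 2 lay within the range of Fes WT 1 to 4, and Fes WT 5 lay within the range of the other Fes KO tumours. The log2 fold change of Gad1 was 1.68 (SE 1.14, edgeR adjusted p = 0.661). The GABA transporter genes Slc6a11 and Slc6a13 had 1.27 (SE 0.68, edgeR adjusted p = 0.586) and 0.90 (SE 0.53, edgeR adjusted p = 0.612), with groups that overlapped. The deviations of Gad1 ran opposite to those of Gabra3 with an r of -0.71 (rho -0.59) over 10 tumours and of -0.44 without Fes WT 5 and Fes KO 4. Gad2 and the vesicular transporter gene Slc32a1 had no more than 1 count in any tumour.

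Of 18 genes of receptor anchoring and trafficking 17 were tested and 0 called in edgeR, with 0 at an unadjusted p below 0.05, 11 above 0 and 6 below, with a median of 0.02. Nlgn2, a cell adhesion gene of inhibitory synapses, was at 270 ± 40.8 CPM in Fes WT and 272 ± 68.0 CPM in Fes KO. Gabarap, named for its binding to GABA-A receptors and known for its part in autophagy, was at 260 ± 23.8 and 259 ± 6.51 CPM, and the transport adaptor gene Trak2 at 174 ± 30.5 and 155 ± 24.9 CPM. The largest difference of the list, named after it was seen, was that of Plcl2, which encodes a phospholipase C-like protein, at 12.7 ± 4.08 and 7.64 ± 3.69 CPM (log2 fold change -0.74, SE 0.35, edgeR adjusted p = 0.546).

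All 8 genes of chloride transport were tested, with a median of 0.07. The chloride importer gene Slc12a2 was at 91.2 ± 47.2 CPM in Fes WT and 125 ± 38.1 CPM in Fes KO, the potassium-chloride cotransporter gene Slc12a4 at 193 ± 23.9 and 220 ± 50.8 CPM, and the kinase gene Wnk1 at 371 ± 63.4 and 328 ± 32.5 CPM. The smallest p of the list, named after it was seen, belonged to Stk39, a kinase that acts on these transporters, with a log2 fold change of 0.46 (SE 0.15, edgeR adjusted p = 0.373).

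Other receptors of the Cys-loop superfamily, to which GABA-A receptors belong, mostly did not pass the filter. Of 23 genes 6 had 0 counts in every tumour and 4 were tested, all 4 below 0, with a median of -0.66. The glycine receptor beta subunit gene Glrb, named after its values were seen, was not tested and went the other way. It had 17 counts over all Fes WT and 137 over all Fes KO tumours, but 102 of the 137 were in 1 tumour. Its groups did not overlap (0.0636 to 0.328 and 0.364 to 6.36 CPM), and its Fes KO median was 0.631 CPM. The part of that tumour's content in the Glrb values was not tested. Chrna4, a neuronal acetylcholine receptor gene, was at 21.3 ± 9.74 CPM in Fes WT and 15.6 ± 7.12 CPM in Fes KO. The muscle receptor genes Chrna1 and Chrnb1 had log2 fold changes of -1.78 (SE 0.80, edgeR adjusted p = 0.516) and -0.87 (SE 0.49, edgeR adjusted p = 0.595). Both were highest in the muscle-rich Fes WT 3, at 6.76 and 16.2 CPM, and the part of muscle content in these values was not tested.

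**Figure D5:**
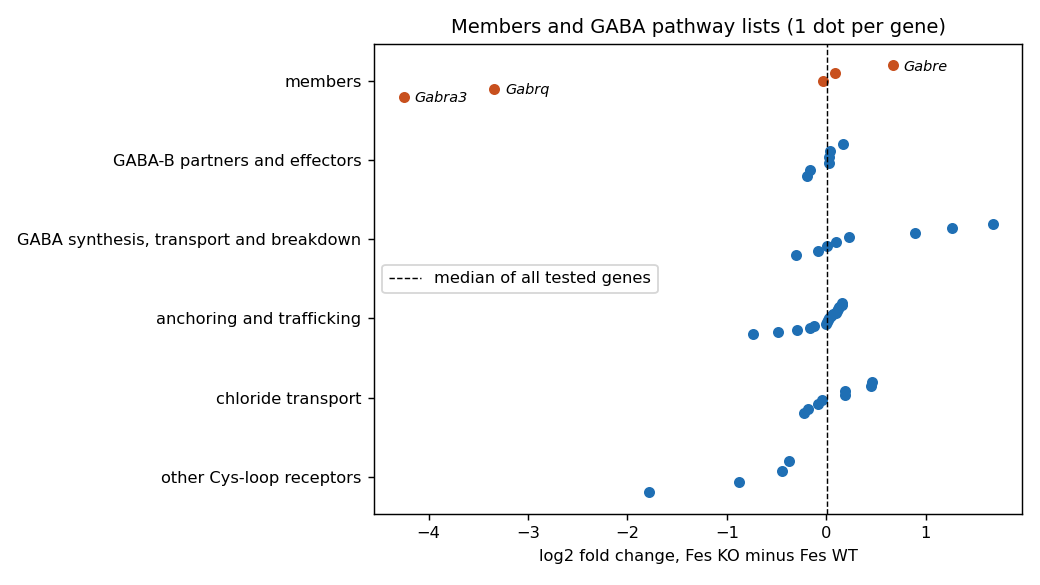
Log2 fold change (Fes KO minus Fes WT) of the tested genes among the 7 members and of 5 pathway lists, with the median of all tested genes as a dashed line. The values of Gabra3 and Gabrq, -4.25 and -3.34, lie below every gene drawn from the lists, whose lowest is -1.78. The members were chosen around the fold change of Gabra3, so nothing is read from this.

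Markers of other cell types were set beside the lower Gabra3 and Gabrq. All 7 macrophage markers lay below 0, with summed levels of 1066 to 2630 CPM in Fes WT and 681 to 1569 CPM in Fes KO, and 0 of them were called in edgeR. All 7 were detected in every tumour, and the groups overlapped. The 5 tested T cell markers of 6 also lay below 0, with sums of 6.11 to 25.8 CPM and 2.62 to 14.2 CPM. The 7 skeletal muscle markers lay below 0 as well, with sums of 3.51 to 13560 CPM and 1.97 to 1676 CPM. Of the 7 tested melanocyte markers 1 lay below 0, with sums of 520 to 869 CPM in Fes WT and 808 to 1037 CPM in Fes KO. Much of these sums was Sox10, at 461 to 809 CPM in Fes WT and 392 to 970 CPM in Fes KO. The mean log2 CPM of the melanocyte markers overlapped between the groups, at 1.38 to 3.05 in Fes WT and 0.98 to 5.59 in Fes KO. Below 0 lay also 2 of 5 endothelial markers, with sums of 222 to 308 and 194 to 452 CPM, and 3 of 5 fibroblast markers, with sums of 22618 to 39052 and 24861 to 42033 CPM. Of 4 tested adipocyte markers 2 lay below 0, with sums of 47.6 to 388 and 42.9 to 376 CPM. The part of these cells in the Gabra3 and Gabrq values was not tested.

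Of 10 neuron markers 2, Tubb3 and Stmn2, passed the filter, and both lay below 0. Snap25 and Elavl3 had no more than 1 count in any tumour and Elavl4 no more than 2, and Syt1 was at 0 in 9 of 10 tumours. Tubb3 ranged from 0.392 to 119.5 CPM in Fes WT and from 0.801 to 168 CPM in Fes KO, and Stmn2 from 0.588 to 2.59 and from 0.588 to 2.14 CPM. The 10 markers summed to 1.83, 122, 122, 99.4 and 5.18 CPM in Fes WT 1 to 5 and to 69.2, 23.6, 2.71, 170 and 3.64 CPM in Fes KO 1 to 5, and the groups overlapped. Their part in the Gabra3 values was not tested. Schwann cell markers, which melanomas of this kind can share, summed to 1715 to 3243 CPM in Fes WT and 1061 to 3095 CPM in Fes KO.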

How the data were processed

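RNA of 10 melanomas, 5 Fes KO and 5 Fes WT, was sequenced, and titles gave each tumour's group and number. The authors deposited raw counts per gene and normalized log2 values. From the values, each deposited log2 value is log2 of the count over a size factor plus 1, to within 5.3e-11. Per the submitters' processing notes, FastQC, STAR 2.51b and Subread 1.4.6 were used, with builds mm10 and GRCm38. The sources used here give neither settings nor strandedness. Positions came from GENCODE M21 (GRCm38), which holds 47224 of the 47643 genes.

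Counts were tested with edgeR 4.0.16 in R 4.3.3 (TMM, filterByExpr with minimum count 10, quasi-likelihood, 2-sided, Benjamini-Hochberg over 14816 genes, called at adjusted p below 0.05). A floor of 3 counts covers counting error only. Alternatives were other scalings and filters, DESeq2 1.42.0, limma 3.58.1, a replicate block and leaving out tumours. Tested on simulated counts of 14816 genes for Fes KO against Fes WT, the script recovered 45% of 2-fold and 85% of 4-fold changes. The changed genes were not drawn from those of lowest level, so these rates do not cover low counts.

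The members and lists were chosen with earlier results of these data known. Named genes are the 7 members, called genes or else the 3 most abundant of each list, the 5 most and 3 least like Gabra3 by r, and up to 3 neighbours by p. Replicates of a group were distinct libraries, each counted once. Some genes that this rule would name are not reported here.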

Additional observations from a re-analysis of the deposited data

Results flagged for a closer look

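A gap test for a single tumour far from the other 4 of its group was run on 84 sets of 5 CPM values. The sets came from only part of the genes named here, so other named genes can hold such tumours too. Of the 84 sets, 15 were set apart. The expected share of about 1 in 20 assumes normally distributed values, which these linear and partly near-zero CPM values need not be. A set with counts in only 1 tumour is set apart by construction, so nothing is read from the share. Several of these genes were named because of their value in Fes WT 5, and no explanation was weighed. Gabra2 reached 0.610 CPM in Fes WT 5, where the other 4 of the group had 0 to 0.0653, and at 0.0631 CPM in Fes KO 1, a single count, against 0 in the other Fes KO tumours. Gad1 was at 6.86 CPM in Fes WT 5 against 0.0610 to 0.955. Gabrp was at 2.10 CPM in Fes WT 3 against 0, and at 55.8 CPM in Fes KO 2 against 0 to 0.0616. Kctd12 was at 118 CPM in Fes KO 2 against 56.0 to 69.6. Glul was at 282 CPM in Fes WT 2 against 155 to 184, and Chrnb1 at 16.2 CPM in Fes WT 3 against 2.82 to 5.49. Bgn was at 4884 CPM in Fes WT 1 against 3196 to 3578.

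Of the genes chosen for their likeness to Gabra3, Tmigd1 at 0.991 CPM against 3.48 to 3.82 and Zfp704 at 29.4 CPM against 44.8 to 49.2 were low in Fes WT 5. C1rl at 14.3 CPM against 4.86 to 6.90, Rnf31 at 42.5 CPM against 31.3 to 32.9 and Slfn4 at 37.7 CPM against 1.59 to 2.80 were high in it. Slfn4 was also high in Fes KO 4, at 13.5 CPM against 1.29 to 2.77.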

How the results depend on the processing

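The log2 fold change of Gabra3 stayed below 0 in all 22 alternatives, from -4.91 to -4.02, and its adjusted p was below 0.05 in 9 of them. Among these 9 is the threshold of 0.1, which reuses the main fit (edgeR adjusted p = 0.0411) and so adds no separate support. The call was lost with limma-voom (-4.25, adjusted p = 0.0543), the stricter filter with minimum count 30 (-4.26, adjusted p = 0.0531), the replicate block (-4.20, adjusted p = 0.0912) and, chosen after seeing the data, without Fes KO 2 and Fes WT 3 (-4.31, adjusted p = 0.122). Leaving out 1 tumour gave -4.52 to -4.02. Gabrq lay between -3.65 and -2.78 in 21 alternatives, with an adjusted p below 0.05 in 2, DESeq2 (0.000203) and without Fes WT 5 (0.0493). Gabre stayed above 0, at 0.44 to 0.84. Gabbr1 and Abat changed sign, between -0.15 and 0.12 and between -0.26 and 0.24.

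Over all genes edgeR called 26, DESeq2 270, limma-voom 115, the stricter filter 12, the replicate block 4, the threshold of 0.1 49, and the fit without the 3 Xist-expressing tumours, also chosen after seeing the data, 64. Leaving out 1 tumour gave 10 to 54 genes, with 15, 11, 16 and 54 without Fes WT 1, 2, 4 and 5 and 10, 10 and 12 without Fes KO 1, 3 and 5. The replicate numbers did not pair the tumours, since same-numbered deviations correlated between -0.38 and 0.17. The count of pathway genes stayed at 0 in 22 alternatives. Near Gabra3, DESeq2 called 3 genes, and leaving out 1 tumour gave 0 to 1, the 1 being Gabrq without Fes WT 5. Of the 5 genes most like Gabra3, 1 remained with Spearman's correlation and 2 to 5 with 1 tumour left out, with 2 without Fes WT 2, Fes WT 5 or Fes KO 2 and 3 without Fes WT 4 or Fes KO 1, 4 or 5. The order per kilobase in Fes WT was the same for 7 of 7 genes with the longest transcript, and in Fes KO for 5 of 7, with Abat at 8.84 above Gabre at 7.50. The near ties in Fes WT depended on the length used. With the longest transcript Gabbr1 was at 24.1 ± 4.20 and Gabra3 at 17.3 ± 8.55 CPM per kilobase in Fes WT. Abat was at 8.31 ± 2.53 and Gabre at 4.71 ± 1.36 CPM per kilobase there. Where these values moved, the cause was not tested. At low counts, as for Gabra2, Gabrb2 and Gabrq in Fes KO, depth limits what can be seen.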

Other observations

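Gabrp, which encodes the pi subunit of the GABA-A receptor and is known from epithelia, was at 55.8 CPM in Fes KO 2, from 895 counts, and at 2.10 CPM in Fes WT 3, from 32 counts. It had 1 count in Fes KO 3 and 0 in the other 7 tumours. Fes KO 2 had the highest summed keratinocyte markers, at 3682 CPM. Fes WT 5, with the second highest sum at 170 CPM, had 0 counts of Gabrp, and Fes WT 3 had a sum of 56.5 CPM. Per length, Gabrp reached 16.5 CPM per kilobase in Fes KO 2, above the 10.8 CPM per kilobase that Gabre reached at most in a Fes KO tumour.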
